A study of Mus musculus with 25 samples.

Results

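The 9 forkhead genes Foxf2, Foxd1, Foxd2, Foxc1, Foxc2, Foxp1, Foxp2, Foxl2 and Foxa1 were followed through 8 compartments of the embryonic mouse palate. They were taken by gene symbol from the 37406 genes of the expression table, and each symbol matched 1 entry. Their levels came from RNA sequencing of 25 laser capture samples of CD1 wild type embryos at E14.5, soon after the palatal shelves meet at the midline. The anterior palate and the posterior palate were each divided into a medial and a lateral compartment and, separately, into an oral and a nasal compartment. There were 3 libraries of each compartment, and 4 of the anterior nasal compartment. By the sample labels, all groups shared strain, genotype and stage, and no group was treated. The medial and lateral pieces were cut from the same shelf region as the oral and nasal pieces, so the 8 compartments overlap in space.

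Forkhead proteins are transcription factors that bind DNA through a winged helix domain. Several of them act in the neural crest derived mesenchyme of the face, where signals from the oral epithelium, Sonic hedgehog in particular, switch on Foxf and Foxd genes. Foxa1 is best known from epithelia and endoderm, Foxc genes from vessel and skeletal development, Foxp genes from neurons, muscle and lung, and Foxl2 from the ovary and the eyelid. In mice, loss of Foxf2 leads to cleft palate.

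Levels are given as RPKM, reads scaled by transcript length and by the mapped reads of the library, which allows genes of unequal length to be set beside each other. Totals that the table's own low values imply ran from 1.64 to 6.56 M reads per library. For Foxd1, Foxd2, Foxc1, Foxc2 and Foxl2, whose listed spans behave as 1 exon, the number of reads behind a value could be worked back, and it ranged from 0 to 370. Summed over 8 mesenchymal marker genes, among them Prrx1 and Col3a1, the level lay between 622.5 and 1283 RPKM in all libraries. Summed over 12 epithelial markers it lay between 28.9 and 170.5 RPKM, so RNA of such markers was found in every library. In posterior oral and nasal, 4 of these 12 reached 5 RPKM in 3 libraries, and the cells that held this RNA were not identified. In such pieces of tissue, fewer cells of a type and less RNA per cell cannot be told apart. Posterior medial replicate 2 stood apart, with 12935 genes above 0 against at least 16330 in every other library, and results resting on it are marked. The alignment names of 6 libraries, those of runs 1 to 3, carry Tgfbr2_WT or ERK2_WT, whereas the sample labels give CD1 wild type, and counts without them are given where they changed.

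The members fell into distinct patterns. Foxf2 was the most abundant, from 10.8 to 133 RPKM, and every other member stayed under 40 RPKM. Foxd2 was an anterior gene. Foxp2 was highest in posterior nasal and posterior lateral libraries, and Foxa1 in anterior nasal ones. Foxf2 was lowest in the posterior nasal compartment, without overlap. Foxd1 was low there too, but overlapped anterior oral, which held its lowest value. Foxc2 never exceeded 2.46 RPKM.

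**Figure D1:**
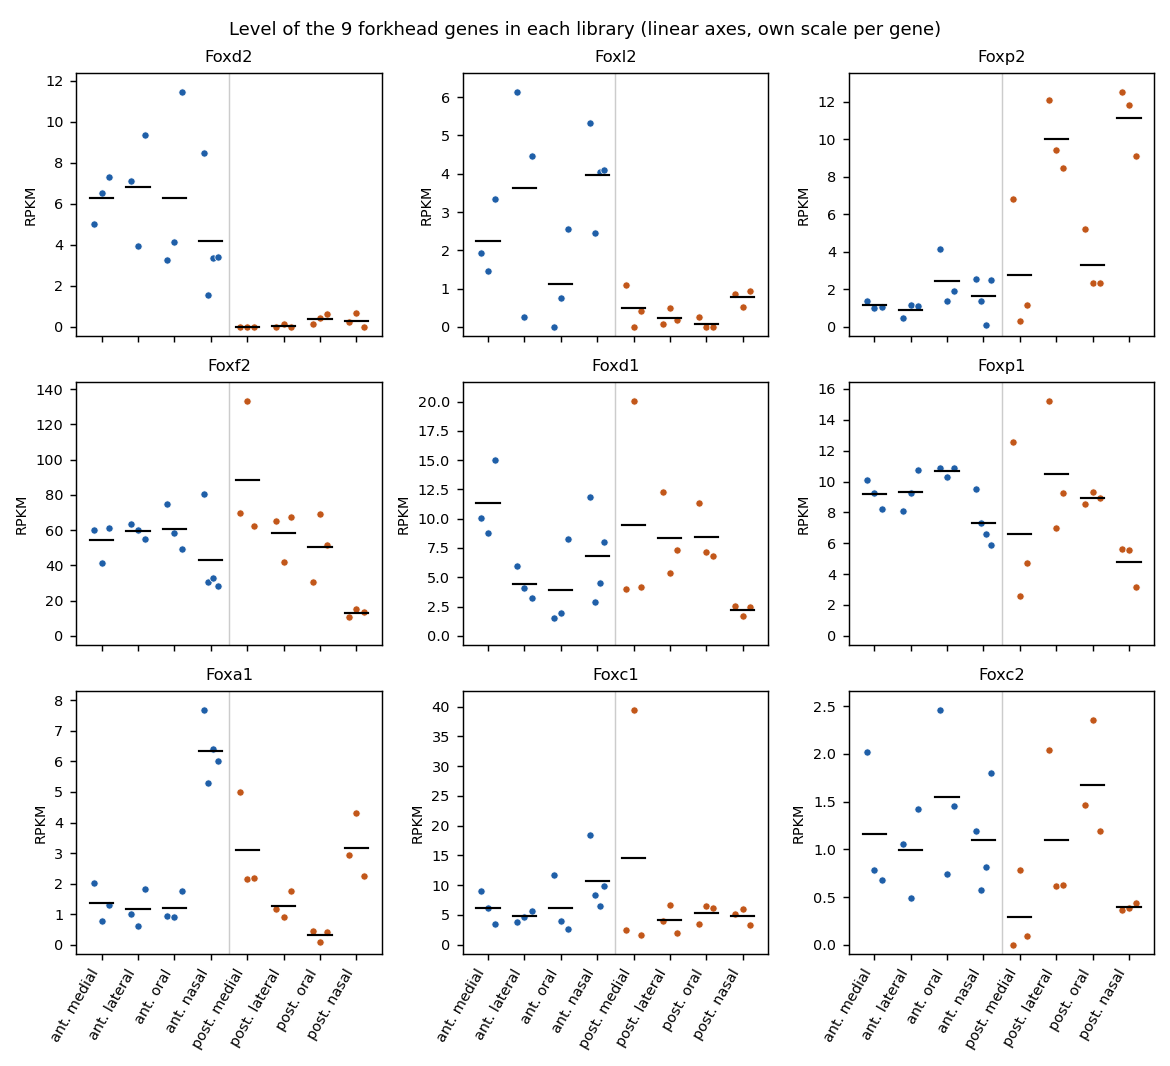
RPKM (vertical axis, linear, own scale for each gene) of the 9 forkhead genes in 25 libraries grouped by compartment (horizontal axis); points are libraries, blue for anterior and orange for posterior, and black bars are compartment means. Foxd2 lies at 1.56 RPKM or more in all 13 anterior libraries and at 0.694 RPKM or less in all 12 posterior ones, Foxp2 is highest in the posterior nasal and posterior lateral libraries, and the point at 133 RPKM for Foxf2 is posterior medial replicate 2.

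In a test of any difference among the 8 compartments, run with limma over the 11913 genes that reached 5 RPKM in 3 or more libraries, 4.42% were called. A gene is called here when its adjusted p, corrected over every gene in the same test, falls under 0.05. Of the 9 members, 7 reached that minimum, and 4 of them were called. The members were chosen with earlier results of these data known, so this share is no independent support. Foxd2 had the highest F statistic of these (30.4, adjusted p = 2.55e-06), followed by Foxa1 (16.0, adjusted p = 1.45e-04), Foxf2 (9.11, adjusted p = 0.00328) and Foxp2 (5.43, adjusted p = 0.0359). Foxd1, Foxp1 and Foxc1 were not called (adjusted p = 0.238, 0.424 and 0.937). Leaving out 1 library brought a call of Foxd1 in 1 of 25 fits (adjusted p = 0.0492), and of Foxp1 in 1 (0.0141). Foxc2 and Foxl2 stayed under the minimum. A gene that is high in a single compartment can pass such a minimum through that compartment alone, so the number of members that passed says nothing by itself. Without the 6 libraries of runs 1 to 3, Foxd2, Foxa1 and Foxp1 were called (adjusted p = 0.00111, 0.00496 and 0.0397), while Foxf2 and Foxp2 were not (0.060 and 0.0721). With the sequencing run as a covariate the same 3 were called (0.00127, 0.0147 and 0.0317) and the same 2 were not (0.0697 and 0.0623). The call of Foxp2 was also lost in 15 of the 25 fits that left out 1 library.

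Foxd2 separated the anterior from the posterior palate. This gene, a hedgehog-responsive factor of facial mesenchyme, lies at chr4:114578885-114581503 in mm9. Over the 13 anterior libraries its level ran from 1.56 through a median of 5.02 to 11.4 RPKM. Over the 12 posterior libraries it ran from 0 through 0.0611 to 0.694 RPKM, and 6 of the 12 were at 0. The groups did not overlap. In reads, the anterior libraries held 673 in total and the posterior libraries 24.

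By compartment, Foxd2 stood at 5.02, 6.52 and 7.30 RPKM in anterior medial, at 7.12, 3.92 and 9.34 in anterior lateral, at 3.26, 4.16 and 11.4 in anterior oral, and at 8.47, 1.56, 3.38 and 3.42 in anterior nasal. The ranges of these 4 compartments overlapped, so their order was not resolved. Posterior oral libraries held 0.122, 0.445 and 0.621 RPKM (2, 4 and 6 reads) and posterior nasal libraries 0.252, 0.694 and 0 RPKM. A single read was found in the 3 posterior lateral libraries, and none in the 3 posterior medial ones. Together the posterior medial libraries held 11.66 M implied reads, at which a count of 0 allows up to 0.0982 RPKM (3 reads over the group, counting error only). Foxd2 was thus at least 63.9-fold lower in posterior medial than in anterior medial, where it came to 6.28 RPKM over the group.

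Foxd2, being near 0 in the posterior libraries, did not reach the study's minimum for the axis comparison, 10 RPKM in 6 samples. Of the members, Foxf2, Foxd1 and Foxp1 did, and none of these 3 was called, against 3.32% of the 8608 genes tested (1.75% of which passed an unadjusted P under 0.05 with a fold over 2, and 0.267% of which did not overlap between the groups). With the lower minimum of 5 RPKM in 3 samples, 3.79% of 11913 genes were called and 0.235% did not overlap. The difference for Foxd2, which passed through its anterior libraries alone, was then -4.65 ± 0.39 (log2 posterior minus anterior ± SE, adjusted p = 9.83e-09), and leaving out any 1 library kept its adjusted p at or under 4.14e-08. With the sequencing run as a covariate over all 25 libraries it was -5.22 ± 0.43 (adjusted p = 7.37e-05). Without the 6 libraries of runs 1 to 3 it was -4.43 ± 0.46 (adjusted p = 7.95e-06). Within each of the 3 runs that held libraries from both ends of the palate, though from different compartments in 2 of them, every anterior library was above every posterior one. Among the marker lists, 2 of 4 pericyte and smooth muscle genes tested were called lower in the posterior palate, Rgs5 (-1.89 ± 0.47, adjusted p = 0.0214) and Abcc9 (-2.07 ± 0.26, adjusted p = 9.12e-06). In the same comparison 1 of 2 cartilage genes was called higher, Col2a1 (1.2 ± 0.25, adjusted p = 0.00374), and of 7 mesenchymal genes Col1a1 was called higher (0.46 ± 0.12, adjusted p = 0.0319) and Prrx1 lower (-0.69 ± 0.18, adjusted p = 0.0236). The part of these in the Foxd2 difference was not tested.

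A divergent transcript beside Foxd2 followed the same division. It is listed as 9130206I24Rik, a symbol that RefSeq gives as a synonym of the noncoding RNA Foxd2os, and it lies 391 bases from Foxd2 in the table. GENCODE M21 places it on the opposite strand, with 384 bases between the starts. Its level was 3.38, 13.9 and 25.2 RPKM (lowest, median, highest) over the anterior libraries and 0.635, 0.960 and 2.59 RPKM over the posterior ones, again without overlap. It reached the axis minimum through its anterior libraries alone. The difference was -3.47 ± 0.27 (adjusted p = 1.86e-09), and -3.81 ± 0.41 (adjusted p = 3.56e-04) with the run as a covariate. The kit does not mark strand, but the listed models do not share bases. Over the 25 libraries the log2 levels of both genes correlated at r = 0.934, over the 13 anterior libraries at 0.762 and over the 12 posterior ones at 0.391, a description of libraries that share runs and depth.

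The stretch before the start of Foxd2 is shown because it lies between these 2 transcripts, which moved together. It is the 250 bases up to the RefSeq start, at chr4:114908899-114909148 in GRCm38.p6 on the minus strand, 5′ to 3′, with no part in capitals since neither motif searched occurs in it.
Foxd2: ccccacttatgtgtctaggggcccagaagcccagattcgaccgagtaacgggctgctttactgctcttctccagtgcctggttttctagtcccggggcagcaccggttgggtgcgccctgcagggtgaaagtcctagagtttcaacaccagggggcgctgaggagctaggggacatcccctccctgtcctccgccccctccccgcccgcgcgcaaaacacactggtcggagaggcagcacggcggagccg
It holds 16 CG pairs and 64.4% G or C, against medians of 6 and 52.4% over all 32851 RefSeq promoter windows.

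Foxl2, at chr9:98856026-98858545 in mm9, was lower and followed the axis less sharply. Its anterior libraries ran from 0 through 2.56 to 6.13 RPKM and its posterior libraries from 0 through 0.333 to 1.09 RPKM, with 292 and 52 reads in total. The groups overlapped, since anterior oral replicate 1 was at 0 and anterior lateral replicate 2 at 0.264 RPKM. Anterior nasal libraries (5.32, 2.47, 4.04 and 4.09 RPKM) were each above every posterior library. Foxl2 reached no minimum and was tested over all 22399 genes above 0, of which 2.17% were called. The difference was -2.48 ± 0.60 (log2, adjusted p = 0.0237). It stayed under 0.05 with any 1 library left out (highest adjusted p = 0.0467), but not with the run as a covariate (adjusted p = 0.170) nor without the 6 libraries of runs 1 to 3 (adjusted p = 0.0929). Within each of the 3 runs with libraries from both ends, the anterior ones were higher without overlap.

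Foxl2os, the noncoding transcript 297 bases from Foxl2, was higher in level than Foxl2 and passed the axis minimum, through its anterior libraries alone. It ran from 4.58 through 10.5 to 30.6 RPKM in anterior libraries and from 0.113 through 1.59 to 4.67 RPKM in posterior libraries. Posterior nasal replicate 3, at 4.67 RPKM, lay just above the lowest anterior library, and the other posterior libraries lay below it. The difference was -2.97 ± 0.40 (adjusted p = 2.63e-05), and -3.11 ± 0.48 (adjusted p = 0.00390) with the run as a covariate. GENCODE M21 has the 2 genes on opposite strands and overlapping by 12 bases, so reads there cannot be assigned to a strand.

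**Figure D2:**
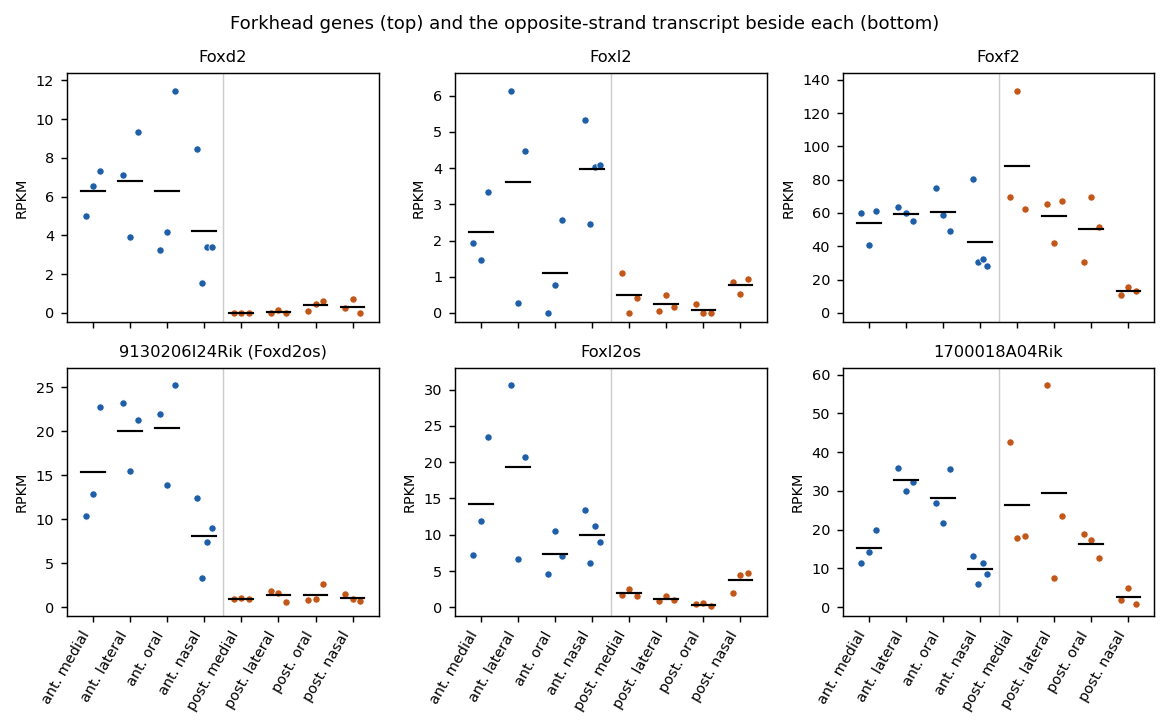
RPKM (vertical axis, linear, own scale) by compartment (horizontal axis) for Foxd2, Foxl2 and Foxf2 in the top row and for the opposite-strand transcript beside each in the bottom row; points are the 25 libraries, bars are means. 9130206I24Rik stays at 2.59 RPKM or less in all posterior libraries and at 3.38 RPKM or more in all anterior ones, Foxl2os meets between the groups near 4.6 RPKM, and 1700018A04Rik is lowest, as is Foxf2, in posterior nasal.

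Foxp2, a forkhead repressor studied mostly in neurons, was the member that ran the other way along the axis. Its span in mm9 is chr6:14851349-15391977. It stood at 12.5, 11.8 and 9.12 RPKM in posterior nasal and at 12.1, 9.42 and 8.47 RPKM in posterior lateral, and the ranges of these compartments overlapped. Posterior oral followed with 5.23, 2.33 and 2.36 RPKM, and posterior medial with 6.83, 0.333 and 1.16 RPKM. The 13 anterior libraries ran from 0.102 through 1.36 to 4.13 RPKM. All posterior nasal and lateral libraries were thus above all anterior ones, while posterior oral and medial libraries overlapped them.

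The posterior minus anterior difference for Foxp2 was 1.86 ± 0.51 (log2, adjusted p = 0.0350) with the lower minimum, which Foxp2 reached through posterior libraries alone. The call was lost in 13 of the 25 fits that left out 1 library (adjusted p from 0.00236 to 0.0678 over the 25), with the run as a covariate (1.45 ± 0.43, adjusted p = 0.163) or without the 6 libraries of runs 1 to 3 (adjusted p = 0.202). In the medial-lateral comparison of the posterior palate, where 4 members were tested, lateral exceeded medial by 2.68 ± 0.96, without overlap, but the adjusted p was 0.957. There, no gene of 10324 passed (0%) and 159 had an unadjusted P under 0.05. By the study's own rule, unadjusted P under 0.05 and a fold over 2, 1.12% of the genes passed, Foxp2 among them, and 6.62% did not overlap. Posterior medial replicate 2 held the lowest Foxp2 value of its compartment, and without it the difference was 1.76 ± 0.66 (adjusted p = 1.00).

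The comparison of posterior oral with posterior nasal was the one of the 5 group comparisons with members called at the study's minimum. Of 10586 genes tested there, 1.25% had an adjusted p under 0.05, and 11.8% did not overlap between the groups. By the study's rule 3.5% of them passed. Foxf2, Foxd1, Foxp1, Foxp2 and Foxc1 were tested, 3 of them were called and passed that rule too, and 4 did not overlap. The study had itself reported Foxf2 and Foxd1 as higher in posterior oral from these same libraries. The members were chosen with such results known, so these shares are no independent support. Foxd1 reached the minimum through its oral libraries alone. Foxf2 and Foxd1, both known targets of hedgehog signalling in facial mesenchyme, were higher orally, and Foxp2 was higher nasally.

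Foxf2 lies at chr13:31717685-31723275 in mm9. In posterior oral it stood at 30.6, 69.4 and 51.5 RPKM, and in posterior nasal at 10.8, 15.3 and 13.4 RPKM. The posterior nasal values were the lowest of all 25 libraries, below the next lowest compartment, anterior nasal, without overlap. Oral exceeded nasal by 1.87 ± 0.32 (log2, adjusted p = 0.0374). In the anterior palate, oral libraries held 74.8, 58.5 and 49.0 RPKM and nasal libraries 80.2, 30.4, 32.5 and 28.2 RPKM. The difference there was 0.63 ± 0.40 (adjusted p = 1.00), and 0.98 ± 0.25 (adjusted p = 0.901) without anterior nasal replicate 1, the library at 80.2 RPKM. The anterior and posterior differences were not shown to differ (interaction -1.24 ± 0.55, unadjusted P = 0.0451, adjusted p = 1.00).

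Foxd1, at chr13:99124200-99126660 in mm9, stood at 11.4, 7.15 and 6.83 RPKM in posterior oral (174.8, 60.4 and 62 reads). In posterior nasal it stood at 2.55, 1.69 and 2.43 RPKM (38, 16 and 15 reads). Oral exceeded nasal by 1.86 ± 0.28 (log2, adjusted p = 0.0214). In the anterior palate the order was turned round in 2 of 3 runs. Oral libraries held 1.49, 1.98 and 8.24 RPKM and nasal libraries 11.9, 2.92, 4.50 and 7.99 RPKM, with much overlap (-1.005 ± 0.66, adjusted p = 1.00). The interaction was -2.87 ± 0.82 (unadjusted P = 0.00452, adjusted p = 0.539), and 4 of 11442 genes (0.0350%) were called in that test. The direction of change along the oral-nasal axis at the anterior end was therefore not resolved for Foxd1.

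For Foxp2 in the same comparison, oral libraries (5.23, 2.33 and 2.36 RPKM) lay below nasal ones (12.5, 11.8 and 9.12 RPKM), a difference of -1.81 ± 0.33 (log2, adjusted p = 0.0468). Foxp1 was higher orally without overlap (8.57, 9.31 and 8.92 against 5.61, 5.59 and 3.14 RPKM), yet it was not called (0.93 ± 0.27, adjusted p = 0.220). Within each of the 2 runs with posterior libraries of both kinds, Foxf2, Foxd1 and Foxp1 were higher orally and Foxp2 was higher nasally. All 3 calls rest on 3 libraries a side, and leaving out any library other than posterior oral replicate 1 left none of the members called. With the sequencing run as a block no member was called (adjusted p = 0.129 for Foxf2, 0.0663 for Foxd1 and 0.148 for Foxp2), with differences of 1.76, 2.04 and -1.84.

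**Figure D3:**
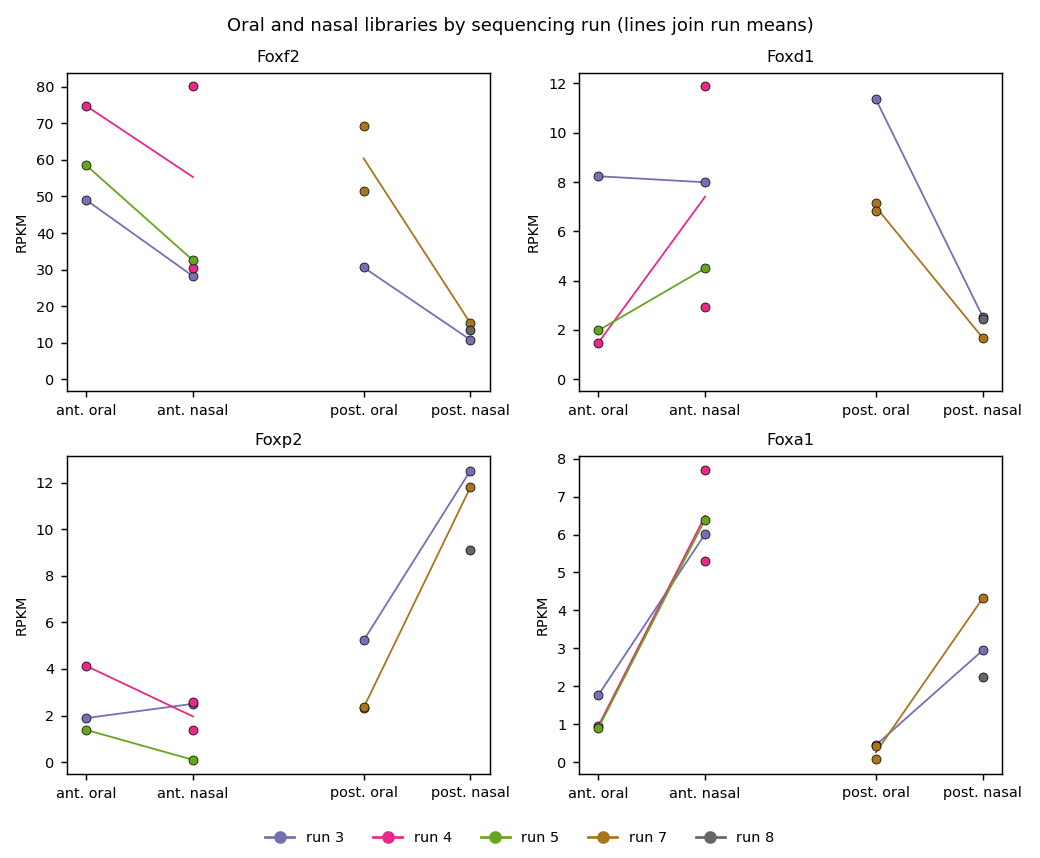
RPKM (vertical axis, linear) of Foxf2, Foxd1, Foxp2 and Foxa1 in oral and nasal libraries of the anterior and posterior palate (horizontal axis); points are libraries coloured by sequencing run, and lines join the means of a run where it holds both compartments. In both posterior runs with oral and nasal libraries Foxf2 and Foxd1 fall and Foxp2 rises toward nasal, and Foxa1 rises toward nasal in all 5 pairs of run means.

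Other tissue markers moved along with this division. The summed level of 8 bone-forming cell markers was 87.0 to 108 RPKM in posterior oral and 380 to 555 RPKM in posterior nasal, and 4 of the 4 tested were called lower orally, among them Sp7 (-3.08 ± 0.30, adjusted p = 0.00460) and Runx2 (-1.18 ± 0.21, adjusted p = 0.0419). Summed endothelial markers were 158.5 to 227 RPKM orally and 69.6 to 116 RPKM nasally, with 1 of 8 called. Summed cartilage markers were 66.4 to 108.9 RPKM orally and 93.5 to 150.1 RPKM nasally, with 1 of 4 called lower orally. Of 4 epithelial markers tested, 1 was called lower orally. Their part in the forkhead differences was not tested.

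The neighbourhood of Foxf2 showed the same oral excess. Gm19805, a gene model that ends 24 bases from Foxf2, held 6.93, 6.31 and 6.25 RPKM in posterior oral and 1.16, 1.39 and 0.839 RPKM in posterior nasal (2.45 ± 0.23, adjusted p = 0.00429). Like Foxd1 it was tested through its oral libraries. 1700018A04Rik, listed 43303 bases from Foxf2 and overlapping Gm19805, held 19.0, 17.5 and 12.8 RPKM orally and 1.81, 5.0 and 0.816 RPKM nasally (2.97 ± 0.55, adjusted p = 0.0468). In GENCODE M21, 1700018A04Rik reaches to 24 bases from the start of Foxf2 on the opposite strand, so it covers the stretch of both listed models, whose reads are not independent. 1700018A04Rik was also higher in anterior lateral than in anterior medial (1.13 ± 0.21, adjusted p = 0.0356), where Foxf2 was not called (0.16 ± 0.18, adjusted p = 0.765). With the run as a covariate, fitted over all 25 libraries, neither was called in posterior oral against nasal. The differences were then 2.26 ± 1.18 for Gm19805 (adjusted p = 1.00) and 2.31 ± 0.52 for 1700018A04Rik (0.151). That fit changed both the libraries and the terms, so the effect of the run alone cannot be read from it. Within each of the 2 runs with both kinds of library, both were higher orally. The call of 1700018A04Rik was lost in 5 of the 6 fits that left out 1 library (adjusted p up to 0.156). Foxf2 and 1700018A04Rik correlated at r = 0.798 over the 25 libraries, and Foxf2 and Gm19805 at 0.248. The latter rests in part on posterior medial replicate 2, where Gm19805 was at 0 and Foxf2 at its highest, 133 RPKM. Over the 13 anterior libraries, which leave that library out, the values were 0.63 and 0.406.

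The 250 bases before the RefSeq start of Foxf2, at chr13:31625566-31625815 on the plus strand of GRCm38.p6, are shown because the start of 1700018A04Rik in GENCODE lies within them, again with no motif to capitalise.
Foxf2: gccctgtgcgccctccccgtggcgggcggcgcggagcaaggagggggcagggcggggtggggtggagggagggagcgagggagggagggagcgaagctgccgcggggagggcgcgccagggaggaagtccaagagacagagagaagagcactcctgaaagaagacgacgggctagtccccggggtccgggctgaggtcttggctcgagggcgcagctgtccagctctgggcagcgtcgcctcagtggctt
It holds 21 CG pairs and 71.6% G or C.

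Foxa1, a pioneer factor of epithelial lineages at chr12:58641619-58647108 in mm9, was higher in nasal than in oral libraries at both ends of the palate. In anterior nasal it stood at 7.69, 5.30, 6.40 and 6.02 RPKM, above every other library of the series. Anterior oral libraries held 0.957, 0.900 and 1.77 RPKM. Posterior nasal libraries held 2.95, 4.32 and 2.25 RPKM and posterior oral libraries 0.452, 0.0914 and 0.426 RPKM, again without overlap. Posterior medial came to 5.01, 2.14 and 2.19 RPKM, a range that overlapped posterior nasal, and the remaining compartments stayed between 0.627 and 2.02 RPKM. Foxa1 was not alone in this direction. Foxl2 was also higher nasally in all 3 anterior and both posterior runs with oral and nasal libraries, at no more than 0.950 RPKM in the posterior ones.

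The anterior oral minus nasal difference for Foxa1 was -2.35 ± 0.29 (log2, unadjusted P = 3.55e-05), and its adjusted p of 0.114 was not undercut by any gene of that comparison. No gene of 10684 was called there (0%), while 318 had an unadjusted P under 0.05. By the study's rule 1.44% of the genes passed, and Foxa1, tested through its nasal libraries, was the member among them. Foxa1 and Foxp1 were the members that did not overlap, against 3.67% of all genes. Foxa1 was called when the spread was estimated over all 25 libraries (adjusted p = 0.0425), but not with the run (0.404) or the replicate number (0.465) as a block. In the posterior palate it stayed under the minimum and was not tested. The summed level of 12 epithelial markers was 40.8 to 87.5 RPKM in anterior oral and 67.4 to 155 RPKM in anterior nasal, and 28.9 to 36.95 RPKM in posterior oral and 36.9 to 65.5 RPKM in posterior nasal. None of the 7 tested in the anterior palate was called, and in the posterior palate 1 of 4 was, Krt18 (-1.61, adjusted p = 0.0284). Krt14 was above 0 in all 25 libraries. Anterior medial libraries, at 69.7 to 131 RPKM of epithelial markers, held Foxa1 at 2.02, 0.765 and 1.29 RPKM. The part of epithelial RNA in the Foxa1 difference was not tested.

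Promoter windows from 250 bases before to 50 bases after the start were found in RefSeq for 7 of the 9 members, with 9 windows in all since Foxp1 has 3. Foxc2 and Foxp2 had none. The core forkhead motif TGTTTAC, searched on both strands (GTAAACA on the other), occurred in 1 of the 9 windows, that of Foxa1, and in 3.65% of all windows. The hedgehog effector motif TGGGTGGTC (GACCACCCA) occurred in none of the 9 and in 0.253% of all windows. The Foxa1 match begins 141 bases before the start. It is shown with its flanks, at chr12:57546235-57546263 on the minus strand of GRCm38.p6, with the motif in capitals.
Foxa1: tatactgctttGTAAACAaagtgagggcc
A match of letters is not evidence of binding, and no binding was measured here.

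Foxd1 was lower in level in anterior lateral than in anterior medial libraries, but was not called. Anterior medial libraries held 10.1, 8.81 and 15.0 RPKM (81, 71.1 and 120 reads) and anterior lateral libraries 5.98, 4.06 and 3.26 RPKM (41, 30 and 20.7 reads), without overlap. The lateral minus medial difference was -1.34 ± 0.27 (log2) with an adjusted p of 0.0509. Of the 10427 genes tested, 2.51% were called, 2.37% passed the study's rule and 21.3% did not overlap. Of the 5 members tested, none was called, and Foxd1 alone passed the study's rule and did not overlap, a share of the members near that of all genes. It was called with a pseudocount of 1 (adjusted p = 0.0385), with a mean-variance trend (0.0376) and without anterior lateral replicate 1 (0.0394), and not called without any 1 of the other 5 libraries (up to 0.18), with no filter (0.166) or with the replicate block (0.119). Run and compartment cannot be told apart here, since all anterior medial libraries came from 1 run and no anterior lateral library did. Summed cartilage markers were 67.8 to 109.9 RPKM in anterior medial and 21.5 to 22.9 RPKM in anterior lateral (2 of 3 tested called lower). Pericyte and smooth muscle markers were 101 to 137.8 against 180.2 to 184.6 RPKM (2 of 7 called higher), endothelial markers 126.4 to 159.6 against 179.3 to 201.5 RPKM (0 of 8 called) and nerve markers 15.2 to 22.9 against 32.2 to 47.3 RPKM (1 of 3 called higher). Of 6 epithelial markers 1 was called higher and 1 lower, and 1 of 2 bone and 1 of 7 mesenchymal markers were called lower. Their part in the Foxd1 difference was not tested.

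In the posterior palate, Foxd1 stood at 4.03, 20.1 and 4.21 RPKM in medial and at 12.3, 5.38 and 7.33 RPKM in lateral libraries. The difference there was 0.16 ± 0.70 (adjusted p = 0.976), and the medial-lateral interaction was 1.5 ± 0.82 (adjusted p = 0.964). In that test 0.00902% of 11089 genes were called. The value of 20.1 RPKM came from posterior medial replicate 2, and without that library the difference was 0.91. No member was called in either interaction, of 6 tested in each.

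**Figure D4:**
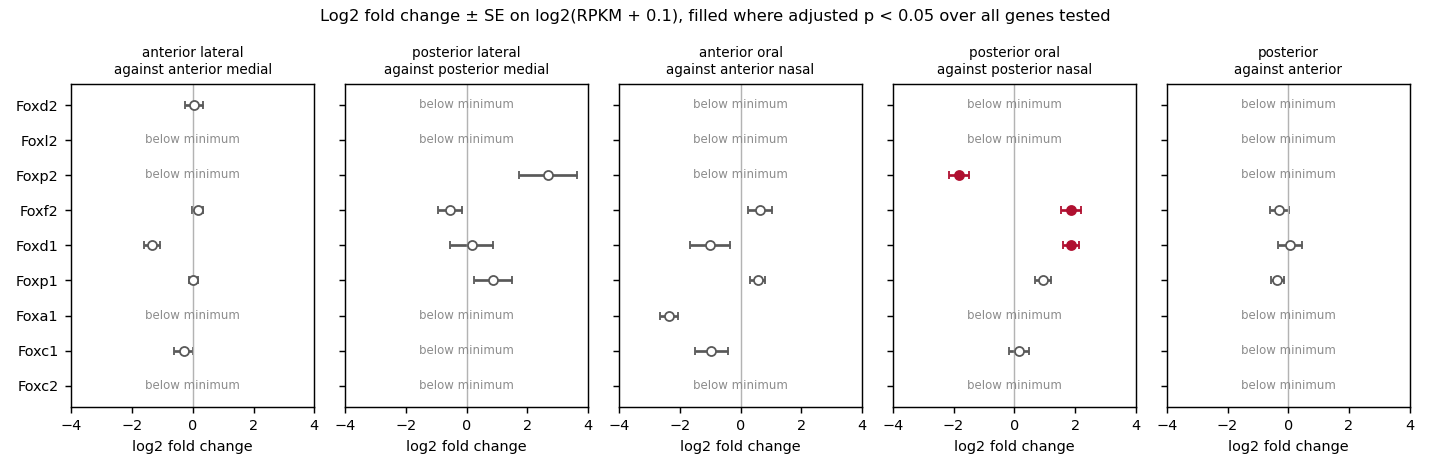
Log2 fold change (horizontal axis, on log2(RPKM + 0.1)) with its SE for each forkhead gene (vertical axis) in 5 comparisons; filled red points are called genes, open points are not, and genes under the expression minimum are marked. The filled points are Foxp2, Foxf2 and Foxd1 in posterior oral against nasal, and Foxa1 lies at -2.35 in anterior oral against nasal without being called.

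Foxp1 ranged from 2.61 to 15.2 RPKM. Its span in mm9 is chr6:98875336-99470987. Anterior oral libraries held 10.9, 10.3 and 10.9 RPKM, and anterior nasal libraries 9.53, 7.30, 6.61 and 5.89 RPKM, without overlap (0.56 ± 0.24, adjusted p = 1.00). The highest and the lowest values, 15.2 and 2.61 RPKM, came from posterior lateral replicate 1 and posterior medial replicate 2.

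Foxc1 and Foxc2, closely related factors of vessel, bone and eye development, gave no call. Foxc1, at chr13:31898515-31902504 in mm9, lay between 1.56 and 18.4 RPKM in 24 libraries, and at 39.5 RPKM (370 reads) in posterior medial replicate 2. Anterior nasal libraries held 18.4, 8.30, 6.44 and 9.84 RPKM and anterior oral libraries 11.8, 4.02 and 2.72 RPKM, a difference of -0.96 ± 0.54 (adjusted p = 1.00). Foxc2, at chr8:123640071-123642794, was covered by 0 to 32.9 reads per library and reached no minimum. Posterior oral libraries (1.47, 2.35 and 1.19 RPKM) lay above posterior nasal ones (0.363, 0.381 and 0.439 RPKM), but these are 12 to 25 against 3 to 6 reads.

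The partners of these genes in the palate were read from lists of hedgehog pathway genes and of mesenchymal factors of the oral side. Of 4 oral-side genes, Osr1, Osr2, Fgf10 and Fgf18, 3 were called higher in posterior oral than nasal, namely Osr1 (2.01 ± 0.26, adjusted p = 0.0142), Fgf10 (2.04 ± 0.27, adjusted p = 0.0155) and Fgf18 (2.39 ± 0.36, adjusted p = 0.0222). The median over the list, 2.03, stood beside -0.01 over all genes tested. The study had itself reported all of these oral-side genes as higher in posterior oral from these same libraries. The list was chosen with such results known, so neither these calls nor this median is independent support. Osr1, Osr2 and Fgf18 were called higher in anterior lateral than medial, with 3 of 3 tested, where Foxf2 was not called. None of the 4 was called in anterior oral against nasal (median 0.505) or in posterior lateral against medial (median 2.26). Osr1 was also called lower in the posterior palate (-1.35 ± 0.38, adjusted p = 0.0465).

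Of 12 hedgehog genes, none was called in any comparison of 2 groups, and the median of the 10 tested in posterior oral against nasal was 0.19. Over the 8 compartments, 2 of 11 were called, the receptor Ptch1 (F = 8.26, adjusted p = 0.00539) and the antagonist Hhip (F = 8.29, adjusted p = 0.00526). Ptch1 was low in anterior nasal (33.2, 26.2, 36.0 and 46.6 RPKM), where it overlapped posterior medial, and anterior oral libraries lay above it without overlap (64.7, 102 and 115 RPKM). The ligand Shh, which the oral epithelium makes, was listed at 15.3 to 16.8 RPKM in the 4 libraries of run 8 and at 0.957 RPKM or less in the other 21. Those 4 libraries come from 3 compartments, so its level followed the run.

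Within 100000 bases of a member 42 other genes are listed, 17 were tested over the 8 compartments and 6 were called, where 4.42% of all genes were. Besides 9130206I24Rik, Foxl2os and 1700018A04Rik they were Foxq1, 64842 bases from Foxf2 (adjusted p = 0.00857), Gmds, 8951 bases from Foxc1 (0.0474), and Pik3cb, 80276 bases from Foxl2 (0.0138). The members at the centre of these stretches were chosen with earlier results of these data known. In GENCODE M21, 9130206I24Rik, Foxl2os and 1700018A04Rik start close to a member on the opposite strand. The share called is therefore no independent support. Foxc2 is flanked by Foxl1 at 8791 bases, Foxf1a at 29292 bases and Mthfsd at 7792 bases, and its levels did not follow those of Foxf1a (r = -0.007) over the 25 libraries.

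Over all 25 libraries, the genes whose log2 levels ran most like those of a member were named as a description. For Foxd2 they were Hpse2 (Pearson r = 0.939), 9130206I24Rik (0.934) and Atp8a1 (0.914). For Foxf2 they were Cxxc4 (0.842), Tgfbr2 (0.827) and Wipf1 (0.825). Foxd1 ran most like Grem1 (0.719), Spred1 (0.705) and Ppm1l (0.688), and among those of Foxp2 were Mxra8 (0.827) and Ptgfr (0.779). Fgf18 was the second for Foxp1 (0.863), after D10Bwg1379e (0.884) and before Stard9 (0.851). The leading gene for Foxa1 was Ehf (0.751), an epithelial factor, followed by Aldh1a1 (0.674) and Sobp (0.665). For Foxc1, whose highest value is posterior medial replicate 2, they were Usmg5 (0.844), Ndufa1 (0.819) and Nkx2-1 (0.818). The libraries share runs, depth and compartments, so these values do not stand for independent points.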

How the data were processed

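The authors deposited 1 table of RPKM values per gene and library. It was made in GeneSpring from single-end reads after duplicate and multiply aligned reads had been removed, and the submitters' processing notes name TopHat and mm9. RNA was amplified with NuGEN Ovation V2 and tagmented with Nextera, which marks no strand. Replicates are said to be biological, without more detail. The 25 libraries came from 8 sequencing runs, numbered 1 to 8, known from alignment names only. Depth was inferred from ratios of low values, which were the same for all but 4 of 300 library pairs.

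RPKM values were taken to log2 after adding 0.1 and fitted with limma (version 3.58.1, under R 4.3.3), and p-values were adjusted by Benjamini-Hochberg across every gene in a test. Fold changes on this scale understate the change of low genes. The expression minimum was 5 RPKM in 3 of the samples fitted, except for the anterior-posterior axis, where it was 10 RPKM in 6. Signs follow lateral less medial, oral less nasal, and posterior less anterior. The interactions are anterior less posterior for medial minus lateral and for oral minus nasal. The fits were tested on simulated data.

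Genes named were all 9 members, listed pathway genes with an adjusted p under 0.05, genes within 100000 bases of a member and, for each tested member, the 3 genes of highest correlation, of which 1 is not reported here. Others were chosen after their values were seen. Members and lists were chosen with earlier results of these data known. Alternatives were other pseudocounts (0.01 and 1), no or another expression minimum, median centring, a mean-variance trend, a replicate block, 1 fit of all libraries, the run as a term and leaving out libraries. As a covariate the run was always fitted over all 25 libraries. What a shared replicate number stands for is not stated. Deviations of same-numbered libraries correlated at 0.239, 0.215 and 0.130 in anterior oral and nasal. In posterior lateral and medial they correlated at 0.226, 0.0361 and 0.277, and in posterior oral and nasal at 0.218, -0.0755 and 0.418. Anterior lateral and medial gave 0.00424, -0.155 and 0.00719. The highest value in anterior oral and nasal, 0.504, joined oral replicate 2 and nasal replicate 3, of the same run. Python 3.11.15 with pandas 2.3.3, numpy 2.4.6 and matplotlib 3.10.9 wrote the tables and figures.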

Additional observations from a re-analysis of the deposited data

Results flagged for a closer look

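Anterior nasal replicate 1 stood at 80.2 RPKM for Foxf2, while the other anterior nasal libraries lay at 28.2 to 32.5 RPKM. The gap to the nearest library was 0.917 of the group's range, past Dixon's 95% critical value for 4 libraries. This was the only such case among the 9 genes in that compartment, the only one with enough libraries for the test. About 1 in 20 such tests passes this value by chance, but the 9 genes share the same 4 libraries and are not independent tests. The same library was also the highest of its compartment for every other member except Foxc2. It held 20605 genes above 0 at 2.16 M implied reads, and the part of this was not tested. The alignment name of this library carries the word Zymo and that of replicate 2 the word SDS, and the part of this in the value was not tested.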

How the results depend on the processing

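Of 826 values of single genes under an alternative, 747 kept their direction and their side of the threshold, 47 lost and 7 gained a call, and 25 changed sign. In posterior oral against nasal, the 3 called members became 0 with no filter on low values, 1 with a mean-variance trend, 1 in the fit of all 25 libraries, 0 with the run as a covariate, 0 with the run as a block, 0 without runs 1 to 3 (where no gene of 9913 was called, Foxd1 and Foxp2 were under the minimum and Foxf2 stood at 2.05) and 0 to 2 with 1 library left out. Leaving out an oral library took Foxd1 under the expression minimum. In anterior lateral against medial, 0 became 1 (Foxd1) with a pseudocount of 1, with the trend and in the range of 0 to 1 with 1 library left out. In anterior oral against nasal, 0 became 1 (Foxa1) in the fit of all 25 libraries. In posterior against anterior, 0 became 2 with no filter on low values, 2 with a minimum of 5 RPKM in 3 samples, and 1 with that minimum and the run as a covariate, since more members were then tested. The 4 calls among compartments ranged from 3 to 5 with 1 library left out, and that of Foxp2 was lost in 15 of 25 cases. The alternatives without runs 1 to 3, with the lower minimum plus the run, and the left-out libraries for genes under the axis minimum and for neighbours were chosen after seeing the data. Over all genes, calls in posterior oral against nasal went from 132 to 11 with no filter, 82 with the trend, 68 in the fit of all 25 libraries, 15 with the run as a covariate or as a block, and 12 to 57 with 1 library left out. In anterior lateral against medial they went from 262 to 157 with no filter or the block, 31 in the fit of all 25 libraries, 0 with the run and 55 to 195 with 1 library left out. In posterior against anterior they went from 286 to 143 with the run, 452 with the lower minimum and 485 with no filter, and among compartments from 526 to 177 with the run.

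Uncalled differences that changed sign were those of Foxc1 in anterior lateral against medial (1.01), Foxd1 in posterior lateral against medial (-1.09), Foxc1 in posterior oral against nasal (-0.20, also with the run as a block) and Foxd1 in posterior against anterior (-0.12), all with the run as a covariate, and the oral-nasal interaction of Foxa1 with a pseudocount of 1 (-0.11). The cause was not tested. With 1 library left out, the sign also changed within these ranges: Foxc1 -1.09 to 1.2 and Foxd2 -0.043 to 0.69 in the medial-lateral interaction, Foxc1 -0.10 to 0.42 in posterior oral against nasal, Foxd1 -0.095 to 0.21 in posterior against anterior and -0.23 to 0.91 in posterior lateral against medial, and Foxd2 -0.23 to 0.39, Foxf2 -0.032 to 0.25 and Foxp1 -0.086 to 0.12 in anterior lateral against medial.

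The replicate number as a block moved no count of called members by over 1.5 times. It took Foxp2 in posterior oral against nasal to an adjusted p of 0.05, where the 3 calls became 2. Same-numbered libraries are not known to share more than the number, though some of them also share a run. Foxc2 rests on at most 32.9 and Foxl2 on at most 43.1 reads per library.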

Other observations

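Among the 35 other forkhead genes in the table, 14 reached the minimum for the test among compartments and 1 was called, Foxq1 (F = 7.52, adjusted p = 0.00857). Foxq1, which lies 64842 bases from Foxf2, held 12.5, 17.0 and 3.42 RPKM in posterior medial and 10.2, 2.69 and 4.44 RPKM in posterior lateral, and stayed at or under 2.81 RPKM elsewhere. Its highest value, 17.0 RPKM, came from posterior medial replicate 2, and no result for Foxq1 without that library is given. None of the others was called in any comparison of 2 groups or interaction.

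The following genes were chosen after their values were seen. Foxf1a, near Foxc2, varied from 0 to 28.8 RPKM with wide spread within compartments, for example 2.68, 18.3 and 28.8 RPKM in anterior oral. Foxj1, a factor of ciliated cells, held 2.66, 5.18, 2.77 and 1.2 RPKM in anterior nasal and 2.01, 3.88 and 1.84 RPKM in posterior nasal, and stayed at or under 1.24 RPKM in every other library. Like Foxa1, it was higher in nasal than in oral libraries at both ends of the palate. The 2 genes differed in posterior medial, where Foxa1 held 5.01, 2.14 and 2.19 RPKM and Foxj1 0.674, 0 and 0.448 RPKM. No test was made on Foxj1.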
